A study of Homo sapiens with 6 samples.

Results

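Serine synthesis, one-carbon metabolism and transsulfuration were followed through 10 enzymes, PHGDH, PSAT1, PSPH, SHMT1, SHMT2, MTHFD1, MTHFD2, MTHFD1L, CBS and CTH. Every non-control probe set that the array annotation assigns to exactly 1 gene, that gene being one of these, was taken, which gave 22 of the 54613 probe sets tested and 10 of the 19775 genes measured. A probe set is a group of short probes whose brightness is summarised as 1 expression value.

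The study examined how a small fraction of cancer cells survives drug, and these arrays compared such drug-tolerant persisters (DTPs) with parental cells. All 6 samples were PC-9, a non-small cell lung cancer line with a mutant EGFR, and all carried a GFP vector. The 3 parental samples had DMSO, the vehicle. The 3 DTP samples had erlotinib, which blocks the EGFR kinase, at 2 µM for 9 days from 80% confluency. This is the dose in the labels and in the array methods, whereas the general methods for DTPs have 1 µM. The protocol in the labels has parental cells taken on day 3 at 100% confluency and DTPs on day 10, whereas the design text and the methods give vehicle for the same 9 days, so drug, time and density cannot be told apart if the protocol holds. DTPs are the cells left alive, and survival of a subset cannot be told apart from a change within cells. In bulk RNA, fewer cells of a type also cannot be told apart from less RNA per cell. The labels do not say whether the samples came from separate cultures or experiments. The p-values therefore speak only for the spread between the arrays, which may be technical.

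Cells make serine from a glycolytic intermediate, 3-phosphoglycerate, by a short chain of cytosolic enzymes. Serine then gives a carbon unit to folate, in the mitochondria and in the cytosol by parallel sets of enzymes, and these units feed the synthesis of purines, thymidylate and methionine. Serine also condenses with homocysteine in transsulfuration, which supplies cysteine for glutathione. Many of these genes are known targets of ATF4, a transcription factor of the amino acid stress response, and the chain from PHGDH onward is known to be active in part of lung cancers.

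Of the 10 enzymes, 7 fell in DTPs and none rose, in limma's fit across all genes. A call here needs more than a 1.5-fold difference together with a Benjamini-Hochberg adjusted p below 0.05. At an unadjusted limma p under 0.05 alone, 8 of the 10 were lower and none higher, beside 5624 and 4445 of all genes, and the methods' t-test also called none higher. The call rule took 6.13% of all genes as lower and 8.08% as higher. The 7 were the serine synthesis enzymes PHGDH, PSAT1 and PSPH, the mitochondrial enzymes SHMT2 and MTHFD2, and the transsulfuration enzymes CBS and CTH. SHMT1, MTHFD1 and MTHFD1L did not pass. The median log2 fold change (DTP minus parental) was -1.41 over the 10 enzymes and -0.05 over all genes. The parental and DTP arrays did not overlap for 8 of the 10, against 53.7% of all genes.

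**Figure D1:**
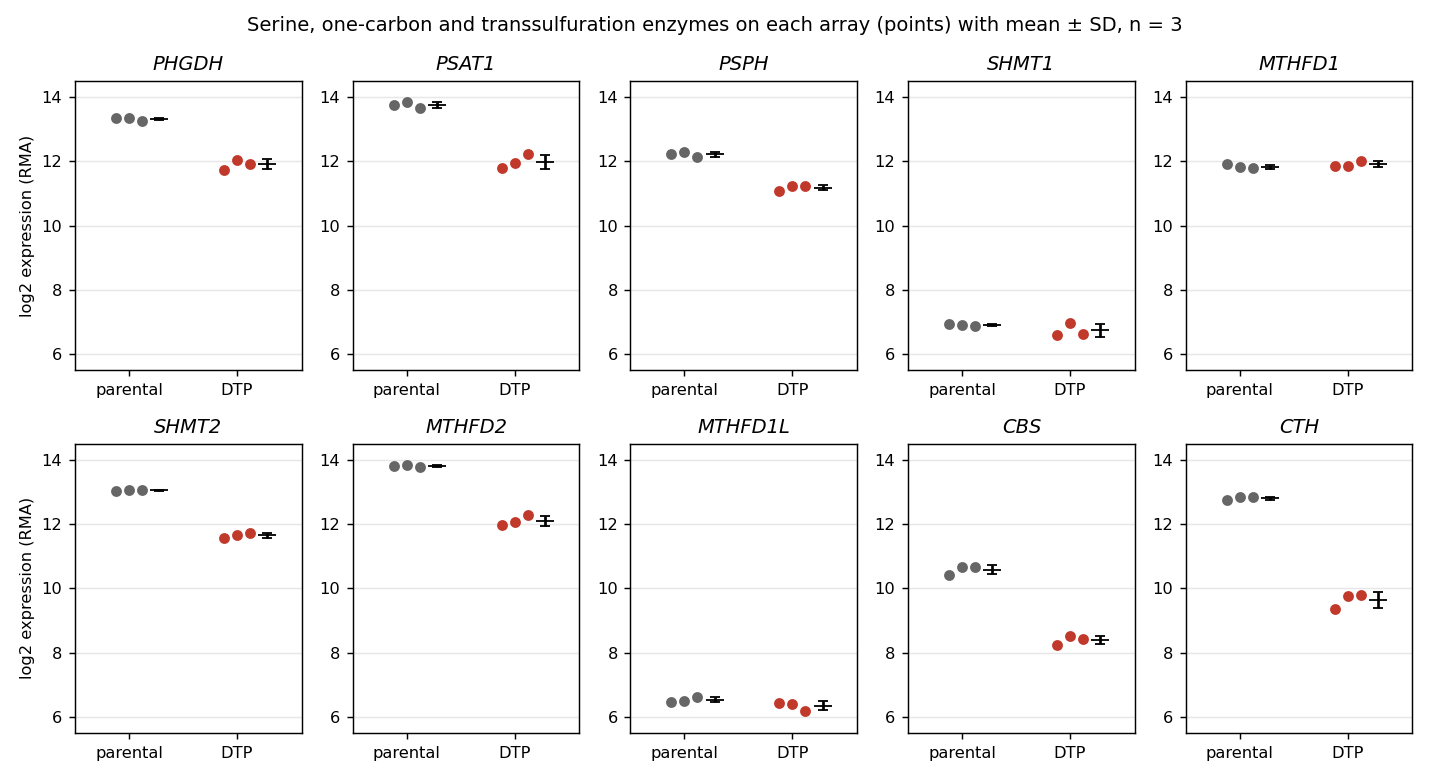
Log2 expression (vertical axis, RMA units) of each of the 10 enzymes on every parental (grey) and DTP (red) array, with mean ± SD of 3 arrays beside the points. Levels are to be compared within a panel, since each panel is a different probe set. PHGDH, PSAT1, PSPH, SHMT2, MTHFD2, CBS and CTH show DTP arrays below all parental arrays, whereas SHMT1 and MTHFD1 overlap.

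All 3 enzymes that build serine from 3-phosphoglycerate fell. PHGDH, the dehydrogenase of the first and committed step, gave log2 values of 13.34, 13.35 and 13.27 on parental arrays 1, 2 and 3 and of 11.74, 12.05 and 11.93 on DTP arrays 1, 2 and 3. Every DTP array lay below every parental array, and PHGDH fell 2.66-fold (-1.41 ± 0.08 SE on the log2 scale, n = 3 arrays per group, limma adjusted p = 2.5e-08). PHGDH had no other probe set of its own. A probe set that lists PHGDH together with 2 other symbols, and so cannot be given to one gene, differed by -0.34 and was below the fold minimum.

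PSAT1, the transaminase that takes nitrogen from glutamate in the next step, read 13.76, 13.84 and 13.65 on the parental arrays and 11.79, 11.94 and 12.23 on the DTP arrays. The groups were again apart, with the widest DTP spread among these 3 enzymes (SD 0.22 against 0.10 in parental cells). PSAT1 fell 3.40-fold (-1.77 ± 0.10 SE, limma adjusted p = 2.3e-08). Its other probe set gave a fall of 4.39-fold in the fit over all probe sets.

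PSPH, the phosphatase that releases free serine, read 12.22, 12.30 and 12.15 in parental cells and 11.09, 11.22 and 11.22 in DTPs. This was the smallest fall of the 7 that passed, at 2.07-fold (-1.05 ± 0.07 SE, limma adjusted p = 1.2e-07), and the arrays did not overlap. Another PSPH probe set gave 2.28-fold. The third, an _x_at probe set (a suffix for probes that can bind other transcripts) whose level stood at percentile 40.7 of all probe sets, differed by -0.31 ± 0.08 SE and did not reach the fold minimum.

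In the mitochondrial arm of one-carbon metabolism, SHMT2 and MTHFD2 fell and MTHFD1L did not pass on its own probe sets. SHMT2, which moves a carbon from serine to folate and leaves glycine, read 13.03, 13.06 and 13.07 on the parental arrays and 11.56, 11.66 and 11.71 on the DTP arrays. The parental arrays lay within a few hundredths of each other (SD 0.02) and far above the DTP arrays, a fall of 2.66-fold (-1.41 ± 0.07 SE, limma adjusted p = 4.0e-09). The remaining SHMT2 probe sets gave 3.07-fold and 3.23-fold, also called lower.

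MTHFD2, which oxidises the folate-bound carbon in the mitochondria, read 13.82, 13.83 and 13.77 in parental cells and 11.96, 12.07 and 12.27 in DTPs. MTHFD2 fell 3.26-fold without overlap between groups (-1.70 ± 0.08 SE, limma adjusted p = 4.1e-09). Its other probe set, with the suffix _x_at, gave 3.63-fold.

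MTHFD1L, which releases the carbon as formate for export to the cytosol, had only dim probe sets of its own, at percentiles 31.7 and 26.7 of all probe sets. The brighter of these read 6.48, 6.49 and 6.63 in parental cells and 6.43, 6.41 and 6.19 in DTPs. The groups were apart by a narrow gap, the difference of -0.19 ± 0.08 SE did not pass (limma adjusted p = 0.082), and its 95% interval ran from -0.36 to -0.01. Brighter probe sets that list MTHFD1L together with 2 other symbols were called lower, at 2.51-fold (11.91, 11.88 and 11.90 in parental cells against 10.46, 10.45 and 10.80 in DTPs) and at 2.31-fold. Which of the listed transcripts these probe sets read was not tested. With them taken for the gene, a choice made after seeing the data, 8 of the 10 enzymes were called lower.

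The cytosolic enzymes SHMT1 and MTHFD1 did not pass in either direction. MTHFD1, which interconverts the folate carbon units used for purines and thymidylate, was bright and read 11.91, 11.82 and 11.78 on the parental arrays and 11.86, 11.85 and 12.02 on the DTP arrays. The groups overlapped, and the difference of 0.07 ± 0.07 SE had a 95% interval from -0.09 to 0.23 (limma adjusted p = 0.45). A dim second MTHFD1 probe set, at percentile 16.3, differed by 0.20 ± 0.09 SE.

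SHMT1, the cytosolic counterpart of SHMT2, had dim probe sets of its own at percentiles 39.8 and 15 of all probe sets. The brighter read 6.93, 6.92 and 6.89 in parental cells and 6.61, 6.98 and 6.63 in DTPs. DTP array 2 stood above all parental arrays and the others below them, so the groups overlapped (-0.17 ± 0.09 SE, 95% interval -0.38 to 0.03, limma adjusted p = 0.16). Brighter probe sets that list SHMT1 together with a microRNA symbol differed by -0.39 and -0.42 with limma adjusted p of 0.0019 and 7.9e-04, both under the fold minimum.

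Both transsulfuration enzymes fell, and on the probe sets taken for the genes their changes were the largest among the 10. CBS, which joins serine to homocysteine to form cystathionine, read 10.42, 10.65 and 10.67 on the parental arrays and 8.24, 8.50 and 8.42 on the DTP arrays. CBS fell 4.56-fold with no overlap (-2.19 ± 0.09 SE, limma adjusted p = 8.2e-10), and a further CBS probe set gave 5.75-fold. The last CBS probe set, at percentile 56.6, differed by -0.56 ± 0.11 SE (limma adjusted p = 0.0021), a fold of 1.47 just under the minimum. It passed the minimum without parental array 1 (-0.67), DTP array 1 (-0.59) or DTP array 3 (-0.62).

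CTH, which cleaves cystathionine to cysteine, read 12.75, 12.83 and 12.84 in parental cells and 9.34, 9.77 and 9.78 in DTPs. The lowest parental array stood far above the highest DTP array, and CTH fell 9.04-fold (-3.18 ± 0.11 SE, limma adjusted p = 1.5e-10). By the size of its change CTH ranked 59 among the 19775 genes. Its other probe set gave 10.0-fold.

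**Figure D2:**
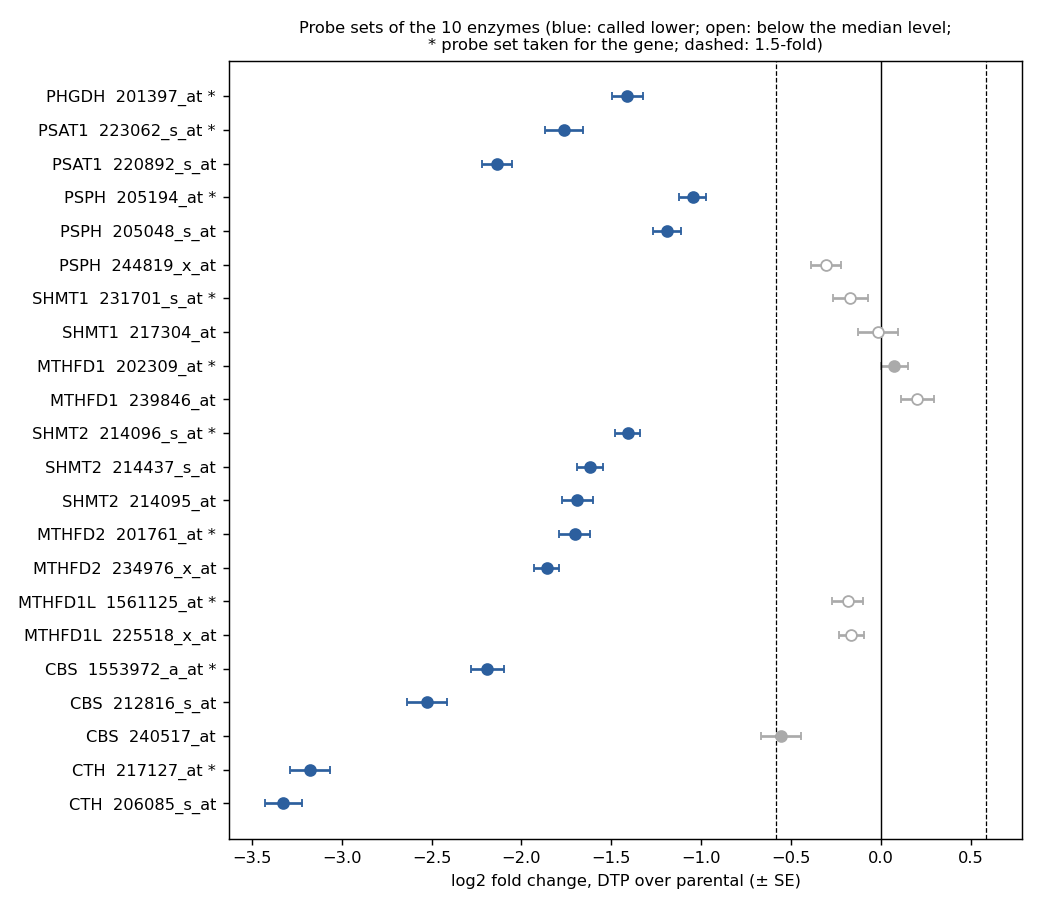
Log2 fold change (horizontal axis, DTP over parental) ± SE of limma's fit for each of the 22 probe sets of the 10 enzymes; blue marks a call, open circles a mean level below the median of all probe sets, an asterisk the probe set taken for the gene, and dashed lines 1.5-fold. The 14 blue probe sets lie between -3.32 and -1.05, and the probe sets that were not called lie between -0.56 and 0.20.

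By probe set, 14 of the 22 were called lower and none higher, against 4.93% and 7.56% of all probe sets. Of the 8 that were not called, 6 had a mean level below the median of all probe sets. The other two were the bright probe set of MTHFD1 and the CBS probe set just under the fold minimum. Probe sets of 1 gene share their target and are not replicates. RefSeq lists pseudogenes of PSAT1, PSPH, SHMT1, MTHFD1 and MTHFD2, and binding of their transcripts to these probes was not tested.

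Within the DTP group, array 1 gave the lowest value for each of the 7 enzymes that fell. Without this array the log2 fold change of CTH was -3.03 and that of PHGDH -1.33, and all 7 were still called. Ordered by size on the probe sets taken, the falls ran from CTH and CBS through PSAT1, MTHFD2, PHGDH and SHMT2 to PSPH. The order depended on that choice. With the mean of all probe sets of a gene, CBS at -1.76 came after PSAT1 at -1.95 and after MTHFD2, and SHMT2 at -1.57 came before PHGDH at -1.41. PSAT1 and MTHFD2 had overlapping 95% intervals (-1.99 to -1.54 and -1.88 to -1.53), as did PHGDH and SHMT2 (-1.59 to -1.23 and -1.56 to -1.26). The intervals of CTH and CBS were apart, since that of CTH ended at -2.95 and that of CBS began at -2.38.

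Whether neighbouring enzymes changed by different amounts was compared within arrays for 6 pairs, as the log2 difference between the enzymes of a pair on each array. With 3 arrays against 3, the two-sided exact permutation test cannot give a p below 0.10, so no pair could pass 0.05. After Benjamini-Hochberg adjustment over these pairs, 5 had 0.12 and MTHFD1L minus MTHFD1 had 0.20. Between the folate paralogs, MTHFD2 minus MTHFD1 was 1.91, 2.01 and 1.99 in parental cells and 0.10, 0.22 and 0.25 in DTPs. The change was -1.78 (exact permutation p = 0.10), with the difference lower on every DTP array than on any parental array.

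SHMT2 minus SHMT1 changed by -1.24 without overlap (exact permutation p = 0.10), with SHMT1 read by a dim probe set. With the brighter SHMT1 probe set of several symbols the change was -0.99. MTHFD1L minus MTHFD1 changed by -0.26 with overlapping groups (exact permutation p = 0.20), by -0.13 without DTP array 3, and by -1.40 when MTHFD1L was read by the brighter probe set of several symbols.

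In transsulfuration, CTH minus CBS was 2.33, 2.18 and 2.18 in parental cells and 1.10, 1.27 and 1.36 in DTPs, a change of -0.99 (exact permutation p = 0.10). With the mean of all probe sets of a gene this was -1.49. In serine synthesis, PSAT1 minus PHGDH changed by -0.35 (-0.54 with that mean) and PSPH minus PHGDH by 0.36 (0.56 with it), each without overlap and each at an exact permutation p of 0.10. Thus on all 3 DTP arrays the PSAT1 difference lay below, and the PSPH difference above, every parental array. Only the changes are compared, since the levels of different probe sets cannot be set against each other. The size of a change also differed between probe sets of 1 gene. PSAT1 gave -1.77 and -2.13, and CBS gave -2.19, -2.52 and -0.56. A pair's change therefore depended on the probe sets taken.

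**Figure D3:**
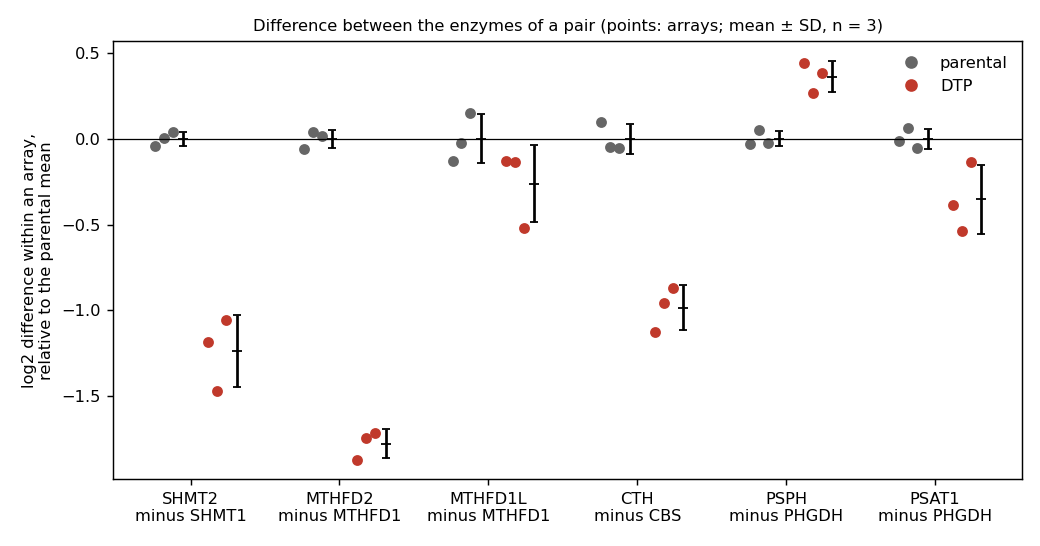
Log2 difference between the enzymes of each of 6 pairs within an array, relative to the parental mean (vertical axis), for parental (grey) and DTP (red) arrays, with mean ± SD of 3 arrays. MTHFD2 minus MTHFD1 shows the largest change (-1.78), and MTHFD1L minus MTHFD1 is the pair whose groups overlap.

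Promoter sequences are shown because these enzymes fell together and elements bound by ATF4, MYC and NRF2 are known in genes of this pathway. RefSeq promoter windows (GRCh38.p14, 250 bases before to 50 after the start) were found for 8 of the 10 enzymes and not for PSPH and SHMT2. Each gene had 1 window, at 1 start. The MTHFD1L window (150866236 to 150866535) lies inside the annotated gene (150865702 to 151101887). So does that of CBS (43076328 to 43076627, gene 43053191 to 43076873). Other starts of these genes were not searched. The C/EBP-ATF response element was searched as TGATGNAAT, the E-box as CACGTG and the core of the antioxidant response element as TGACNNNGC, each on both strands. The matches are given on the strand of the gene, with the match in capitals and 8 bases on each side, and in MTHFD2 and CBS the capitals are the reverse complement of the searched letters.
MTHFD1L response element, chr6:150866349-150866373, plus strand: gccggctcTGATGCAATcgcgccgg
MTHFD1L E-box, chr6:150866324-150866345, plus strand: cccggctcCACGTGcgcagccg
MTHFD1 E-box, chr14:64388330-64388351, plus strand: tccctaagCACGTGggttgggt
MTHFD2 antioxidant core, chr2:74198613-74198637, plus strand: ccctcccgGCGCAGTCAccggcgcg
CBS antioxidant core, chr21:43076444-43076468, minus strand: ggctctggGCGCGGTCAcgcggggc

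The letters searched for the response element were present in 1 of the 8 windows, against 1.02% of all 27305 promoters. Only that string was searched, so a window without it may still hold another form of the element. The E-box was present in 2 of the 8, against 7.43%, and the antioxidant core in 2 of the 8, against 13.6%. Of 16 windows of other ATF4 target genes, the searched response element letters were in 1, the E-box in 1 and the antioxidant core in 5. The windows of PHGDH, PSAT1, SHMT1 and CTH held none of the searched letters. MTHFD2 and CBS, which carry the antioxidant core here, were among the 7 enzymes that fell. MTHFD1 and MTHFD1L, which carry the E-box, were not called on probe sets of their own. MTHFD1L, which also carries the response element, was called lower on brighter probe sets of several symbols. A link between these letters and the falls was not tested. A match is a description of the letters and not of binding.

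Genes around these enzymes were described by list, with the number called and the median log2 fold change, beside -0.05 for all genes. Of all genes, 6.13% were called lower and 8.08% higher. In the use and supply of cysteine, 6 of 11 genes fell and 1 rose, with a median of -0.62. SLC7A11, the cystine importer, fell 2.98-fold, and its partner SLC3A2 fell 2.10-fold. GCLC, the catalytic subunit of the first enzyme of glutathione synthesis, fell 2.55-fold. CSAD, which acts in the making of taurine from cysteine, rose 2.08-fold.

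In serine transport and use, 5 of 17 genes fell and 3 rose, with a median of -0.02. With the mean of all probe sets of a gene, 4 fell and 1 rose. The neutral amino acid carriers SLC1A4 and SLC1A5 fell 4.98-fold and 2.46-fold. SPTLC2, a subunit of the enzyme that joins serine to a fatty acid in sphingolipid synthesis, fell 1.96-fold. SFXN3, a mitochondrial serine carrier, rose 1.94-fold.

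Among the remaining enzymes and carriers of folate, 1 of 16 fell and none rose, with a median of -0.04 (1 higher and 3 lower at an unadjusted limma p under 0.05). DMGDH, a mitochondrial enzyme of choline breakdown, fell 4.31-fold on 1 of its 2 probe sets, from a low level (7.47 to 5.36). None of the 4 genes of the glycine cleavage system was called, GCSH differing by 0.41 and GLDC by -0.26 (2 higher and 1 lower at an unadjusted limma p under 0.05). In the methionine cycle 1 of 11 fell, MTRR, which reactivates methionine synthase, by 1.75-fold, and the median was -0.14. None rose, but 1 gene of this list was called higher after centring on ribosomal proteins or spike-ins.

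In purine and thymidylate-linked synthesis, 3 of 12 genes fell and 1 rose, with a median of -0.17. GMPS and IMPDH2, which form guanine nucleotides, fell 1.87-fold and 1.71-fold, and PRPS1, which makes the activated ribose, rose 1.77-fold. GMPS was called on 1 of its 3 probe sets and was not called as the mean of them. GART fell 1.56-fold on the probe set taken, but 2 of its 9 probe sets had the opposite sign, 1 of them called higher. Of 16 genes of glycolysis that lead to 3-phosphoglycerate or sit beside it, 1 was called, with a median of -0.05. This was HK2, the first kinase of glycolysis, 3.74-fold lower on 1 of its 3 probe sets.

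Among regulators known to act on these genes, 7 of 11 fell and none rose, with a median of -0.94. ATF3 fell 3.16-fold, CEBPG, a partner of ATF4, 2.97-fold, MYC 2.63-fold and DDIT3 2.44-fold. ATF4 mRNA itself, named after its value was seen, read 13.88, 13.84 and 13.89 in parental cells and 12.79, 12.79 and 12.93 in DTPs. The groups did not overlap, a fall of 2.04-fold (limma adjusted p = 8.3e-08). ATF4 is known to be controlled mainly in translation, which these arrays do not read.

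Of 19 other known targets of ATF4, 15 fell and 1 rose, with a median of -1.26. The part of ATF4 in the falls of the 10 enzymes was not tested. INHBE, a subunit of activin, fell from a mean of 10.12 to a dim 5.18, so that its fold of 30.7 is that of the summarised values and no exact size. SESN2 and TRIB3, both stress-response proteins, fell 7.90-fold and 7.15-fold, and ASNS, which makes asparagine, 6.63-fold. ASNS was called on 1 of its 2 probe sets.

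**Figure D4:**
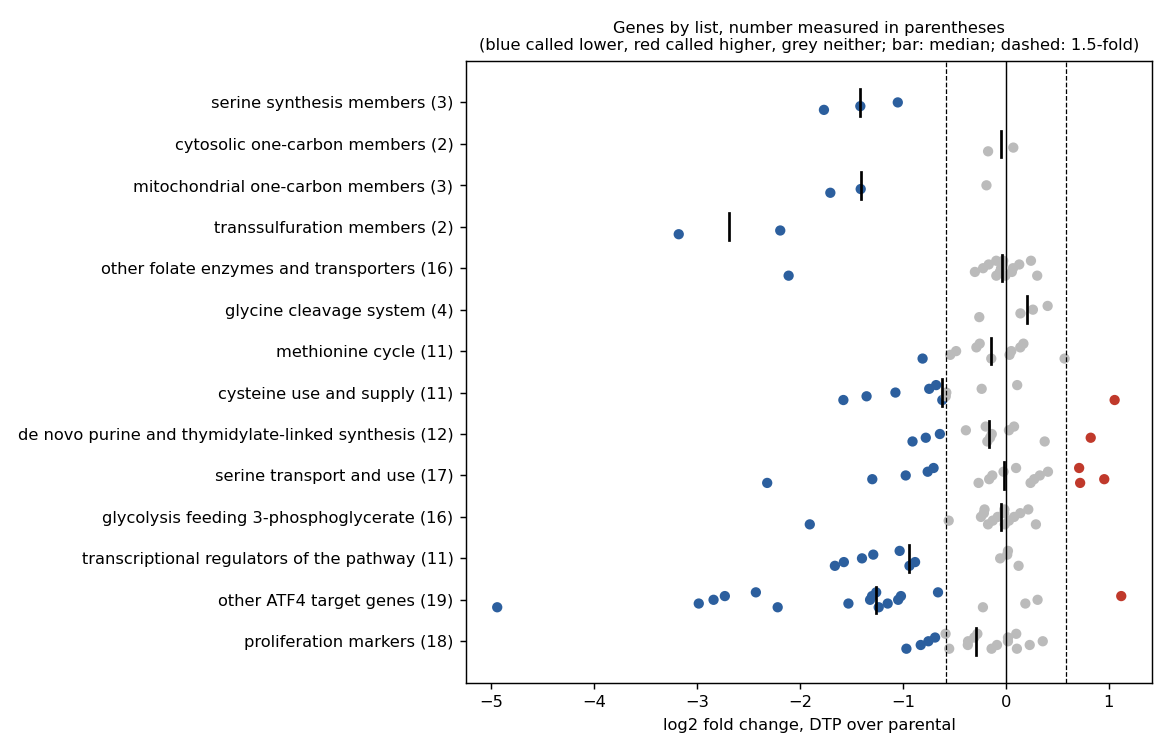
Log2 fold change (horizontal axis, DTP over parental) of each gene of 14 lists (rows, number measured in parentheses); blue was called lower, red higher and grey neither, the bar is the list's median and dashed lines mark 1.5-fold. The 7 enzymes called lower lie left of -1, as do most other ATF4 target genes, while the medians of other folate enzymes (-0.04) and of glycolysis genes (-0.05) lie near 0, with DMGDH and HK2 as the single called gene of each list.

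The genes whose 6 values, each centred on its parental mean, were closest to those of CTH were COL13A1, a membrane collagen, CNIH3, an auxiliary protein of glutamate receptors, PDE2A, a phosphodiesterase, IL1A, a cytokine, and GPAT3, an acyltransferase of glycerolipid synthesis. Their root mean square difference from CTH over the 6 arrays was 0.10 for COL13A1, 0.11 for CNIH3 and for PDE2A, 0.12 for IL1A and 0.17 for GPAT3, in log2 units. All 5 were called lower, which follows from choosing them for their likeness to CTH.

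Markers that moved with the groups were as follows, and their part in the results for the 10 enzymes was not tested. Of 18 proliferation markers 4 fell, BUB1, AURKA, PLK1 and CDK1, by 1.61-fold to 1.95-fold, and the list's mean log2 level ranged from 11.14 to 11.29 in parental cells and from 10.82 to 11.10 in DTPs. BUB1 and AURKA were not called as the mean of their probe sets. All 8 epithelial markers, EGFR included, had a level above the median of all probe sets in at least 1 group. At an unadjusted limma p under 0.05, 4 of these markers were higher and 2 lower. KRT7 rose 1.96-fold on 1 of its 4 probe sets and was not called as the mean of them. Of 8 fibroblast markers 1 rose, COL1A1 by 6.36-fold, while the other 7 were not called and the list's median was -0.03. COL1A1 was called on 3 of its 5 probe sets, 1 had the opposite sign, and their mean gave 1.51. With COL1A1 in it, the list's mean ranged from 7.01 to 7.09 in parental cells and from 7.30 to 7.41 in DTPs. PECAM1, 1 of 5 endothelial markers, fell 1.61-fold on the probe set taken, which was not called after centring on ribosomal proteins or spike-ins. PECAM1 was called lower on 4 of its 5 probe sets and as the mean of them (-1.29). None of 5 blood cell markers was called (1 higher and 1 lower at an unadjusted limma p under 0.05). None of 25 cytosolic ribosomal protein genes was called, with a median of -0.11 (6 lower and none higher at an unadjusted limma p under 0.05).

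Over all arrays, 2809 genes were called (14.2%), 1597 higher and 1212 lower, and 2150 higher and 852 lower after centring on ribosomal protein genes, which moved the median of all genes by 0.12. Pearson's r over probe sets was 0.9968 to 0.9979 within groups and 0.9701 to 0.9754 across them, a description only. The 3′ minus 5′ difference of the β-actin controls was 0.17 ± 0.03 (SD) in parental cells and 0.06 ± 0.03 in DTPs (exact permutation p = 0.10), and that of GAPDH -0.15 ± 0.02 and -0.18 ± 0.002 (exact permutation p = 0.10). The part of RNA quality in the results for the enzymes was not tested.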

How the data were processed

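RNA of 3 parental and 3 DTP samples was hybridised to Affymetrix Human Genome U133 Plus 2.0 arrays, 1 array per sample. The deposited log2 values are 1 summary per probe set and array, which the authors computed with robust multi-array averaging (RMA) in the R package affy and quantile normalised between arrays. Versions and genome build: not given in the sources used here. This method gives no detection call, so a dim probe set still has a value and its fold understates a change, and quantile normalisation hides a change of total mRNA per cell. Array medians were 7.27 to 7.32. The number of arrays limits the precision.

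Groups came from the cell type given in the labels. Of 54613 probe sets tested, 41091 carried exactly 1 symbol, 1801 several and 11721 none, and only the first were named. A gene was read by its brightest probe set over the 6 arrays, _x_at probe sets being used only for the 419 genes with no other. Lists hold only genes with a probe set of that symbol alone. The group difference was fitted without covariates by limma 3.58.1 (lmFit, then eBayes, R 4.3.3), over genes and over all probe sets, with two-sided p-values adjusted by Benjamini-Hochberg. A call needed more than 1.5-fold and an adjusted p below 0.05, as in the study's methods. SEs and 95% intervals are limma's. The scripts were tested on simulated data.

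The 10 enzymes and all lists were chosen with earlier results of these data known, and lists were only described, with no test. Named genes were the 10 enzymes, in each other list up to 4 called genes with the largest change (in a list with no call, the 2 of smallest p), and the 5 genes closest to CTH. ATF4 was named outside this rule, and ribosomal protein genes were used as a count only. Pairs of enzymes were compared with a two-sided exact permutation test over arrays. Alternatives were a replicate block, leaving out each array, 3 other scalings, a filter on dim probe sets, other variance, call and probe set rules, and the two-tailed t-test that the methods use elsewhere.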

Additional observations from a re-analysis of the deposited data

How the results depend on the processing

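The 7 enzymes called lower kept that call under all 19 alternatives, and none of the 10 enzymes reversed. With the probe sets of 1 symbol, no enzyme's call changed with a scaling, the filter, the test, the mean or brightest of all probe sets or a left-out array. Of their probe sets 14 were lower, but 15 without parental array 1, DTP array 1 or DTP array 3, when a further CBS probe set passed the fold minimum, and 16 with no fold minimum. Leaving out 1 array gave log2 fold changes from -3.25 to -3.03 for CTH, from -2.27 to -2.12 for CBS and from -1.48 to -1.33 for PHGDH. MTHFD1 ranged from 0.02 to 0.22 over its alternatives, and with ribosomal protein centring its limma adjusted p was 0.038, at 0.20, under the fold minimum. Taking probe sets of several symbols, chosen after seeing the data, raised the enzymes called lower to 8, with MTHFD1L at -1.33 (limma adjusted p = 1.2e-07), where its other alternatives gave adjusted p up to 0.85, and moved SHMT2 minus SHMT1 to -0.99 and MTHFD1L minus MTHFD1 to -1.40. With the mean of all probe sets of a gene, SHMT2 minus SHMT1 was -1.48, MTHFD2 minus MTHFD1 -1.92, CTH minus CBS -1.49, PSAT1 minus PHGDH -0.54 and PSPH minus PHGDH 0.56.

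Over all genes, 4043 were higher and 4754 lower with no fold minimum, and 679 and 431 above 2-fold. Spike-in centring, which moved the median of all genes by 0.15, left 795 lower beside 2290 higher. Over probe sets the counts were 10155 and 10956 with no fold minimum, 1685 and 886 above 2-fold, and 1697 lower with spike-in centring. The methods' t-test called 1596 genes higher and 1210 lower unadjusted, and 1574 and 1200 after Benjamini-Hochberg adjustment. Same-numbered arrays did not deviate together (correlations of -0.12, 0.02 and -0.06, and of -0.07 to 0.15 between arrays of different number). With 3 arrays per group this cannot decide whether the samples were paired. With the replicate number as a block, 1597 genes were called higher and 1212 lower, 7 enzymes were lower, and 4129 and 2691 probe sets were higher and lower.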
